A study of Drosophila melanogaster with 4 samples.

Results

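Progression through mitosis and the cell cycle is described here through 41 *Drosophila* genes, chosen by their FlyBase symbols, in RNA from larval brains. All 41 symbols matched a row of the count tables, 41 of 23932 annotated features, and all 41 passed the filter on low counts that left 13082 features for testing. The study asked how Orb2, an RNA-binding protein of the CPEB family, affects mRNA levels in the brain of wandering L3 (WL3) larvae. By their labels, 2 libraries came from brains in which *insc*-GAL4 drove an RNAi hairpin against *orb2*, and 2 from brains in which it drove a hairpin against the eye colour gene *white* as the control, so both labels name the driver and a hairpin. The *inscuteable* driver is active in neuroblasts and GAL4 can persist in their progeny, while RNA came from pools of whole dissected brains, in which neurons, glia and any adhering tissue were sequenced too. The labels number the samples within each genotype without saying what sets them apart, so p-values measure only the spread between these samples.

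Neuroblasts, the stem cells of the larval brain, divide repeatedly and leave behind smaller cells that divide once more before becoming neurons. Each division is driven by cyclins bound to cyclin-dependent kinases (Cdks), which are switched on by the String phosphatase and held back by inhibitory kinases and binding proteins. Aurora, Polo and checkpoint kinases then build the spindle and time the separation of chromosomes, for which the anaphase-promoting complex destroys securin. The same complex also destroys cyclins. In bulk tissue, fewer dividing cells and less of an mRNA per dividing cell cannot be told apart.

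The libraries labelled *orb2* RNAi held 75.41 and 55.83 M counts, and those labelled *white* RNAi held 61.43 and 34.61 M. *orb2* itself stood at 105.3 and 53.6 CPM (read counts divided by library size after TMM scaling) in the libraries labelled *orb2* RNAi, against 17.1 and 15.3 CPM in those labelled *white* RNAi. The targeted gene was thus higher under its own label, with a log2 fold change of 2.29 ± 0.39 (SE), an adjusted p of 0.9998 in edgeR and of 0.0001 in DESeq2 without shrinkage. Groups are therefore named by their labels throughout, and any direction rests on labels that *orb2* goes against. All 10 genes of the neuroblast list were detected in every library. Their levels summed to 4458 and 3109 CPM under the label *orb2* RNAi and 4854 and 2748 CPM under *white* RNAi. These sums were dominated by *pros* and *brat*, genes whose lowered expression raises neuroblast number according to the paper. The sums are therefore no measure of neuroblast content. Neuronal markers summed to 4063 and 3607 CPM under *orb2* RNAi and 4975 and 2694 CPM under *white* RNAi. Of 14 muscle genes, 12 lay higher in both libraries labelled *orb2* RNAi, where 18.5% of all tested features did. Muscle genes summed to 813 and 725 CPM under *orb2* RNAi against 182 and 376 CPM under *white* RNAi. In the same order, fat body genes summed to 544 and 2568 against 4336 and 270 CPM. Salivary gland genes summed to 193 and 1308 against 96.5 and 212 CPM. Cuticle genes had 327 and 476 against 2.56 and 108 CPM, and imaginal disc genes 1013 and 910 against 953 and 703 CPM. The part of these tissue differences in the values below was not tested.

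None of the 41 genes was called different between the labels. A call required a Benjamini-Hochberg adjusted p under 0.05 over all tested features and an absolute log2 fold change over 0.5 in edgeR's quasi-likelihood test, and 0.0% of all tested features met it in either direction. At an unadjusted p under 0.05, 0 of the 41 genes passed, against 3.68% of tested features higher and 0.894% lower. DESeq2 without shrinkage also called 0 of the 41, where it called 0.501% of features higher and 0.23% lower. A single library moved the unadjusted values. Without *white* RNAi replicate 1, 3 of the 41 genes had an unadjusted p under 0.05, *Mps1* at a log2 fold change of 0.51, *Cdk1* at -0.46 and *Sas-4* at -0.62, where 17.6% of features passed higher and 11.3% lower. Without *white* RNAi replicate 2 they were *trbl* at 0.77, *aurB* at 0.70, *feo* at 0.45 and *dap* at 0.44, where 6.93% of features passed higher and 2.97% lower. Leaving out either library labelled *orb2* RNAi left 0 of the 41 passing. The fitted log2 fold changes ran from -0.45 to 0.63 with a median of 0.09, beside a median of 0.02 over all tested features, and 33 of 41 lay above 0 against 52.5% of all features. Every 95% interval held 0, and the median interval reached 0.55 to either side. For 37 of 41 genes the interval lay within -1 to 1, a 2-fold change in either direction, and the exceptions were *aurB*, *Sas-4*, *cid* and *trbl*.

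**Figure D1:**
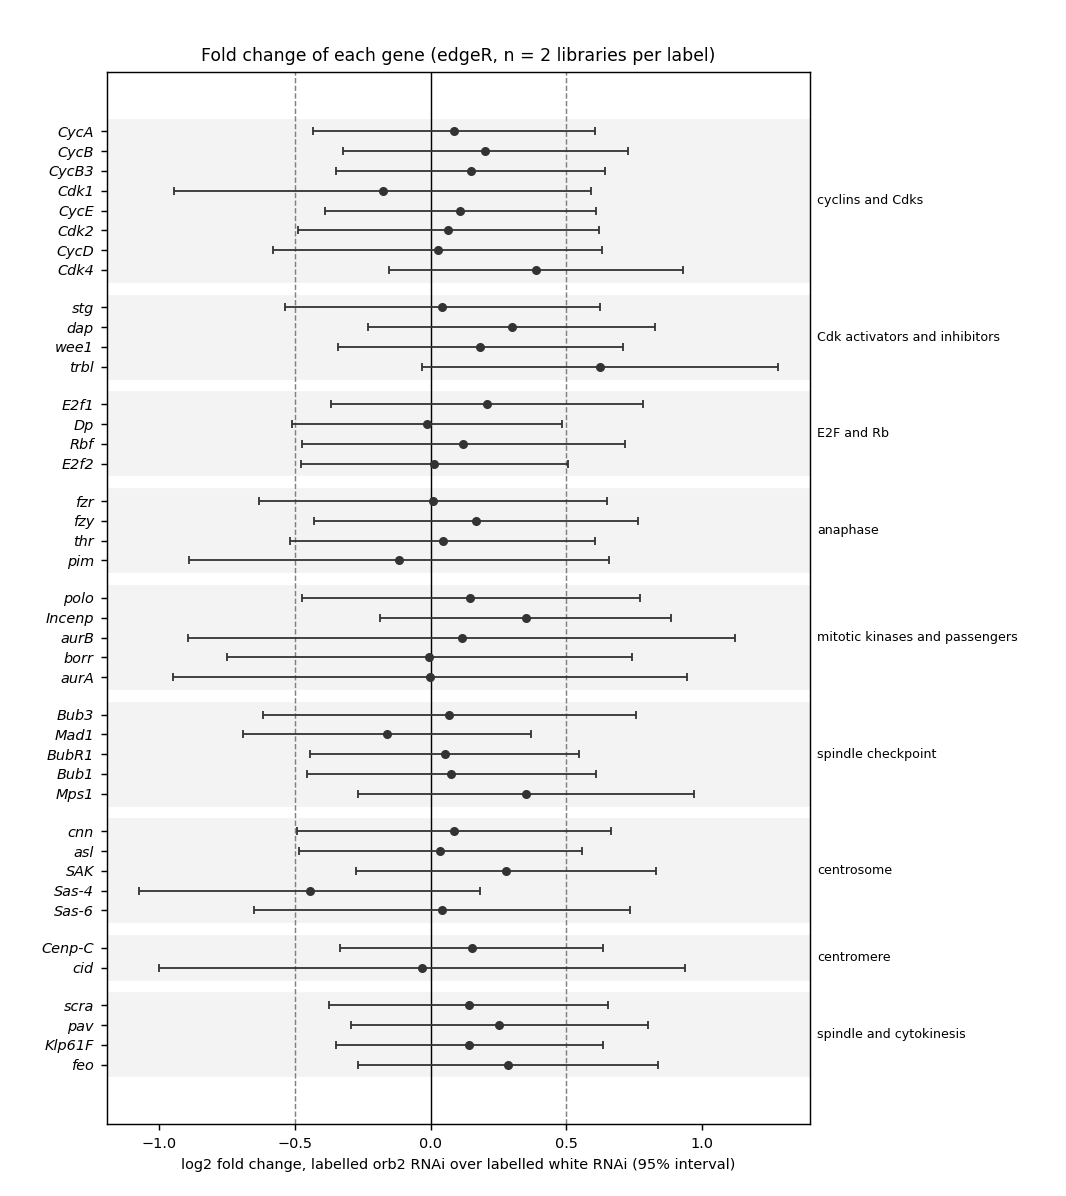
Log2 fold change of each mitosis and cell cycle gene, libraries labelled orb2 RNAi over those labelled white RNAi, with points for edgeR estimates and bars for 95% intervals (n = 2 libraries per label); dashed lines mark -0.5 and 0.5. All 41 intervals cross 0, and trbl and Sas-4 lie farthest to the right and left.

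The libraries can also be compared without a model, by asking whether both levels under the label *orb2* RNAi lay above or below both under *white* RNAi. This held upward for 16 of the 41 genes, or 39.0%, beside 18.5% of all tested features. Among tested features the shares were 15.4% upward and 9.21% downward over protein-coding genes with a mean of at least 20 CPM. It held downward for *Sas-4* alone, 2.44% of the genes, beside 11.7% of all tested features. The upward count depended on the scaling, tried in 3 other ways for this count after seeing the data. With library totals it was 21, and 1 gene lay below, where 20.5% of features lay above and 10.2% below. With the size factors of DESeq2 it was 13, and 2 lay below, where the shares were 17.3% and 12.9%. With each library's trend on exon length taken out it was 9, and *Mad1* joined *Sas-4* below, where 16.7% of features lay above and 17.1% below. Against the *white* RNAi replicate 1 alone, both libraries labelled *orb2* RNAi were higher for 29 genes and lower for 2. The shares over all tested features were 41.2% higher and 35.1% lower. Against replicate 2 alone both were higher for 21 genes and lower for 14, where the shares were 47.8% and 37.3%. Over all 41 genes the levels summed to 4724 and 4809 CPM in libraries labelled *orb2* RNAi, against 4209 and 4595 CPM in those labelled *white* RNAi.

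**Figure D2:**
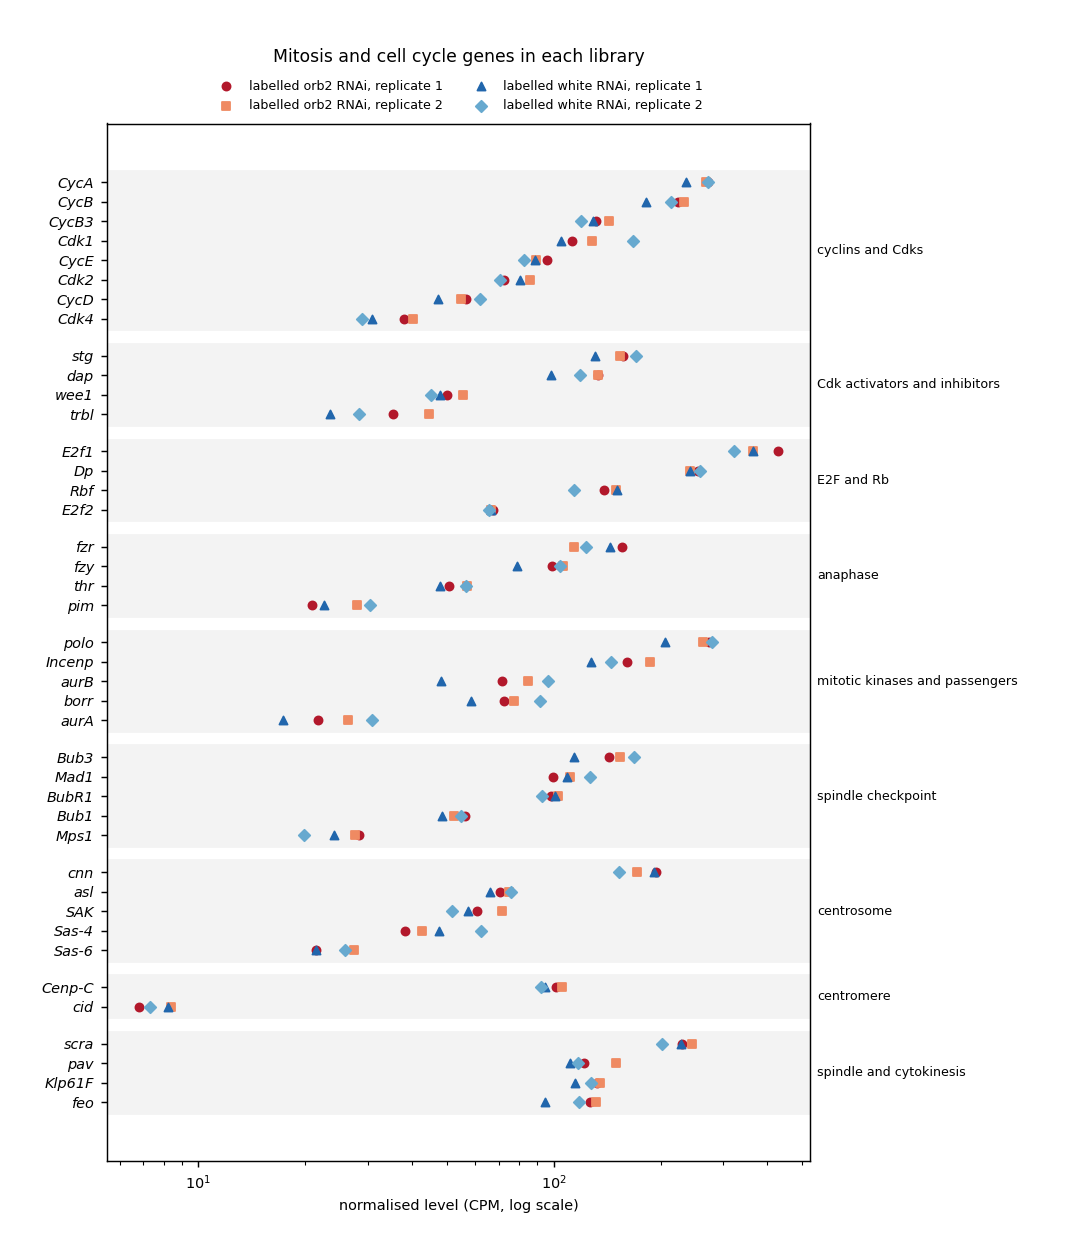
TMM-scaled level (CPM, log axis) of each gene in each of the 4 libraries, grouped by role. Most genes form a tight cluster of 4 symbols, while aurB, aurA and Cdk1 are spread mainly by the low value of white RNAi replicate 1 and the high value of replicate 2.

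Among cyclins and Cdks, the engine of the cycle, 4 of 8 genes (*CycB*, *CycB3*, *CycE* and *Cdk4*) lay above both libraries labelled *white* RNAi. This held for 18.5% of all tested features, and the median log2 fold change of the group was 0.10. *CycA*, a cyclin of S and G2 phase that is required for entry into mitosis, had 272 and 269 CPM in libraries labelled *orb2* RNAi, against 236 and 273 CPM in those labelled *white* RNAi. *CycB*, the mitotic cyclin, had 223 and 233 CPM under the label *orb2* RNAi and 183 and 214 CPM under *white* RNAi, a log2 fold change of 0.20 ± 0.20 (SE). *CycA* overlapped between the labels and *CycB* narrowly did not. With library totals *CycA* also lay above both libraries labelled *white* RNAi. With the exon length trend taken out *CycB* overlapped too, at an estimate of 0.10. *CycE*, which with Cdk2 starts S phase, had 95.9 and 89.3 CPM under the label *orb2* RNAi and 88.9 and 82.7 CPM under *white* RNAi, a log2 fold change of 0.11 ± 0.19. The *CycE* groups overlapped with the size factors of DESeq2, and its estimate turned to -0.08 with the exon length trend taken out. *Cdk4*, the partner of Cyclin D in growth, had 38.0 and 40.3 CPM under the label *orb2* RNAi and 30.8 and 29.0 CPM under *white* RNAi, with a log2 fold change of 0.39 ± 0.21 and an interval of -0.15 to 0.93. The libraries of each label lay close together for *Cdk4*, and the gap between the labels was wider than for *CycE*.

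*Cdk1*, the mitotic kinase, had 113 and 128 CPM in libraries labelled *orb2* RNAi, which fell between the 104.9 and 167 CPM of those labelled *white* RNAi. Its log2 fold change was -0.18 ± 0.29, and the spread between the libraries labelled *white* RNAi set its sign, since it was -0.46 without *white* RNAi replicate 1 and 0.20 without replicate 2. The remaining genes of the group, *CycB3*, *CycD* and *Cdk2*, had log2 fold changes of 0.15, 0.03 and 0.07. In *Cdk2*, 43.9% of exon bases overlap *CG17267*, the largest such share of the 41 genes. Exons of 16 of the 41 genes overlap another gene, by over 10% of their bases also for *E2f2*, *SAK*, *Bub3*, *wee1* and *Klp61F*. Strand-specific counting was not assumed, and how reads in these overlaps were assigned was not tested.

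The switches that act on Cdks held the gene with the largest fold change. *trbl*, which encodes the Tribbles pseudokinase that promotes String degradation, spans 3L 20396288 to 20401609 on the minus strand in BDGP6.54. It had 35.4 and 44.7 CPM in libraries labelled *orb2* RNAi, against 23.5 and 28.4 CPM in those labelled *white* RNAi. Both values under the label *orb2* RNAi exceeded both under *white* RNAi, with a log2 fold change of 0.63 ± 0.25, an unadjusted edgeR p of 0.0576, an adjusted p of 0.9998 and an interval of -0.03 to 1.28. Its estimate was 0.51 without *white* RNAi replicate 1 and 0.77 without replicate 2. *dap*, the Dacapo inhibitor of Cyclin E and Cdk2, had 134 and 134 CPM under the label *orb2* RNAi and 98.6 and 119 CPM under *white* RNAi, a log2 fold change of 0.30 ± 0.20. *stg*, the Cdc25 phosphatase that activates Cdk1, had 157 and 153 CPM under the label *orb2* RNAi and 131 and 170 CPM under *white* RNAi, with a log2 fold change of 0.04 ± 0.22. The inhibitor *dap* was thus nearly equal in the libraries labelled *orb2* RNAi and above both of those labelled *white* RNAi, whereas *stg* fell inside the range of the libraries labelled *white* RNAi. *wee1*, a kinase that inhibits Cdk1, also lay above both libraries labelled *white* RNAi, with a log2 fold change of 0.18 ± 0.20.

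Among the E2F and Rb genes, which gate transcription for S phase, *E2f2* and *Dp* varied little. *E2f1*, the activating E2F, had 429 and 364 CPM in libraries labelled *orb2* RNAi, against 363 and 322 CPM in those labelled *white* RNAi, and the nearest libraries of the groups differed by under 1 CPM. Its log2 fold change of 0.21 ± 0.22 was 0.00 after rounding with the exon length trend taken out. *Rbf*, the retinoblastoma repressor, had 138 and 150 CPM under the label *orb2* RNAi and 151 and 114 CPM under *white* RNAi, and the groups overlapped. *Dp*, the partner of both E2F proteins, had 255 and 243 CPM under the label *orb2* RNAi and 243 and 259 CPM under *white* RNAi, and *E2f2*, the repressive E2F, spanned only 0.03 on the log2 scale over all 4 libraries. All 4 genes of this group had a range over libraries of less than 0.5 on the log2 scale. The same held for all genes of the centromere group and of the spindle and cytokinesis group. *E2f1* at 0.41 and *Rbf* at 0.40 lay near the median range of the 41 genes, 0.39.

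Genes of the anaphase switch overlapped between the labels in 4 of 4 cases. Most tested features overlapped too, as 18.5% lay above both libraries labelled *white* RNAi and 11.7% below both. *fzy*, the Cdc20 activator of the anaphase-promoting complex, had 99.1 and 106 CPM in libraries labelled *orb2* RNAi, against 79.1 and 104 CPM in those labelled *white* RNAi. *fzr*, the Cdh1 activator that acts at mitotic exit and in the endocycle, had 156 and 114 CPM under the label *orb2* RNAi and 144 and 124 CPM under *white* RNAi. Replicates of either label differed more for *fzr* than the label means did, and its log2 fold change was 0.01 ± 0.24. *pim*, the securin, had 20.9 and 28.0 CPM under the label *orb2* RNAi and 22.5 and 30.4 CPM under *white* RNAi, a log2 fold change of -0.12 ± 0.29. *thr*, the separase that securin restrains, had a log2 fold change of 0.04 ± 0.21.

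Mitotic kinases and the chromosomal passenger complex were the most variable group, with 1 of 5 genes ranging less than 0.5 on the log2 scale. Of these, *aurA*, *aurB* and *borr* are among the 8 genes with under 1600 bases of exon. For those 8 genes the median log2 ratio of *white* RNAi replicate 2 over replicate 1 was 0.60. The part of exon length in the spread of this group was not tested. *polo*, the kinase of spindle assembly and cytokinesis, had 274 and 264 CPM in libraries labelled *orb2* RNAi, inside the 206 and 279 CPM of those labelled *white* RNAi. *aurB*, the catalytic passenger, had 71.8 and 84.5 CPM under the label *orb2* RNAi and 48.2 and 96.2 CPM under *white* RNAi, the widest range of the 41 genes at 0.99 on the log2 scale. *Incenp*, the scaffold that anchors Aurora B, had 161 and 187 CPM under the label *orb2* RNAi and 127 and 145 CPM under *white* RNAi, a log2 fold change of 0.35 ± 0.20. *Incenp* was the 1 gene of the group above both libraries labelled *white* RNAi, and *borr*, which encodes the Borealin subunit, and *aurA*, a kinase of centrosome maturation, both had log2 fold changes of 0.00 after rounding. *aurA* was spread like *aurB*, at 21.8 and 26.3 CPM under the label *orb2* RNAi and 17.4 and 30.8 CPM under *white* RNAi.

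In the spindle checkpoint, which delays anaphase until chromosomes are attached, *Mps1*, the kinase at its top, lay above both libraries labelled *white* RNAi. It had 28.4 and 27.7 CPM in libraries labelled *orb2* RNAi, against 24.0 and 19.9 CPM in those labelled *white* RNAi, with a log2 fold change of 0.35 ± 0.24. *Mad1*, which docks Mad2 at kinetochores, had 99.4 and 111 CPM under the label *orb2* RNAi and 109 and 126 CPM under *white* RNAi, and its log2 fold change of -0.16 ± 0.20 stayed below 0 in every alternative fit run. *Bub1*, *BubR1* and *Bub3*, the Bub proteins of the kinetochore, had log2 fold changes of 0.08, 0.05 and 0.07.

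The centrosome group held the lowest fold change of the 41 genes. *Sas-4*, which links the centriole to its surrounding material and spans 3R 7151367 to 7154219 on the plus strand, had 38.1 and 42.7 CPM in libraries labelled *orb2* RNAi, against 47.6 and 62.6 CPM in those labelled *white* RNAi. Both values under the label *orb2* RNAi lay below both under *white* RNAi, with a log2 fold change of -0.45 ± 0.24, an unadjusted edgeR p of 0.125, an adjusted p of 0.9998 and an interval of -1.08 to 0.18. The estimate was -0.62 without *white* RNAi replicate 1 and -0.24 without replicate 2. *SAK*, the Polo-like kinase that starts centriole duplication, went the other way, at 61.0 and 71.7 CPM under the label *orb2* RNAi and 57.6 and 51.8 CPM under *white* RNAi, a log2 fold change of 0.28 ± 0.21. *Sas-6*, which builds the centriole cartwheel, *asl*, which recruits SAK, and *cnn*, the scaffold of the pericentriolar material, had log2 fold changes of 0.04, 0.04 and 0.09 and overlapped between the labels.

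At the centromere, *cid*, the centromeric histone H3 variant, had 6.79 and 8.38 CPM in libraries labelled *orb2* RNAi, against 8.22 and 7.29 CPM in those labelled *white* RNAi. It was the lowest of the 41 genes, with no fewer than 239 reads in any library, and its log2 fold change was -0.03 ± 0.37. *Cenp-C*, which binds Cid nucleosomes and recruits the kinetochore, lay above both libraries labelled *white* RNAi by a log2 fold change of 0.15 ± 0.18. With the exon length trend taken out *Cenp-C* overlapped between the labels and its estimate turned to -0.03.

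The spindle and cytokinesis genes among the 41 lay above both libraries labelled *white* RNAi in 4 of 4 cases. This held for 39.0% of the 41 genes and 18.5% of all tested features. The median log2 fold change of these 4 genes was 0.20. They summed to 610 and 662 CPM in libraries labelled *orb2* RNAi, against 548 and 565 CPM in those labelled *white* RNAi. Among other spindle genes, from the wider list described below, 24.0% lay above both and 4.0% below both. Their median log2 fold change was 0.01. Among 8 other cytokinesis genes of that list, 2 lay above both and 0 below both, with a median of 0.09. The count of 4 of 4 thus did not extend to the wider list. *feo*, the PRC1-related bundler of midzone microtubules, had 127 and 132 CPM under the label *orb2* RNAi and 94.5 and 118 CPM under *white* RNAi, a log2 fold change of 0.28 ± 0.21. *pav*, the kinesin of centralspindlin, *Klp61F*, the kinesin-5 motor, and *scra*, the anillin of the contractile ring, had log2 fold changes of 0.25, 0.14 and 0.14. With library totals or the size factors of DESeq2 *scra* overlapped between the labels. With the length trend taken out only *feo* of these 4 lay above both libraries labelled *white* RNAi, and the estimates were 0.00 for *Klp61F*, after rounding, and -0.02 for *scra*.

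Compared per kilobase of exon, on the mean over all 4 libraries, the 41 genes spanned 15.7-fold. *Cdk1* was highest at 119 CPM per kb, followed by *Bub3* at 106, *CycA* at 89.9 and *polo* at 85.8 CPM per kb. *cid* was lowest at 7.55 CPM per kb, below *thr* at 11.6 and *Mps1* at 11.7 CPM per kb. *Bub3* stood above *Cdk1* in replicate 1 of the libraries labelled *orb2* RNAi, so the order of these neighbours did not hold in every library.

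Within each library, 16 ratios between partner genes were computed from levels per kb, as a description with no test. Those given here were chosen after their values were seen. Of the 16 ratios, 4 lay above both libraries labelled *white* RNAi and 3 below both. Levels of single tested features did so for 18.5% and 11.7%. No share was computed over ratios of other gene pairs, so the count is not read as a result. *Sas-4* over *SAK* was 0.752 and 0.716 in libraries labelled *orb2* RNAi, against 0.994 and 1.45 in those labelled *white* RNAi. That separation follows from *Sas-4* lying below both and *SAK* above both, and adds nothing to their levels. *trbl* over *stg* was 0.291 and 0.377 under the label *orb2* RNAi and 0.233 and 0.215 under *white* RNAi. These were the ratios that joined the genes at either end of the fold changes to a partner in their role. *CycA* over *CycB* was the tightest, at 1.27 and 1.21 under the label *orb2* RNAi and 1.35 and 1.33 under *white* RNAi. *fzy* over *fzr*, the pair of activators that succeed each other at the anaphase-promoting complex, was 0.891 and 1.31 under the label *orb2* RNAi and 0.767 and 1.18 under *white* RNAi, so that replicates of a label differed more than the labels did.

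**Figure D3:**
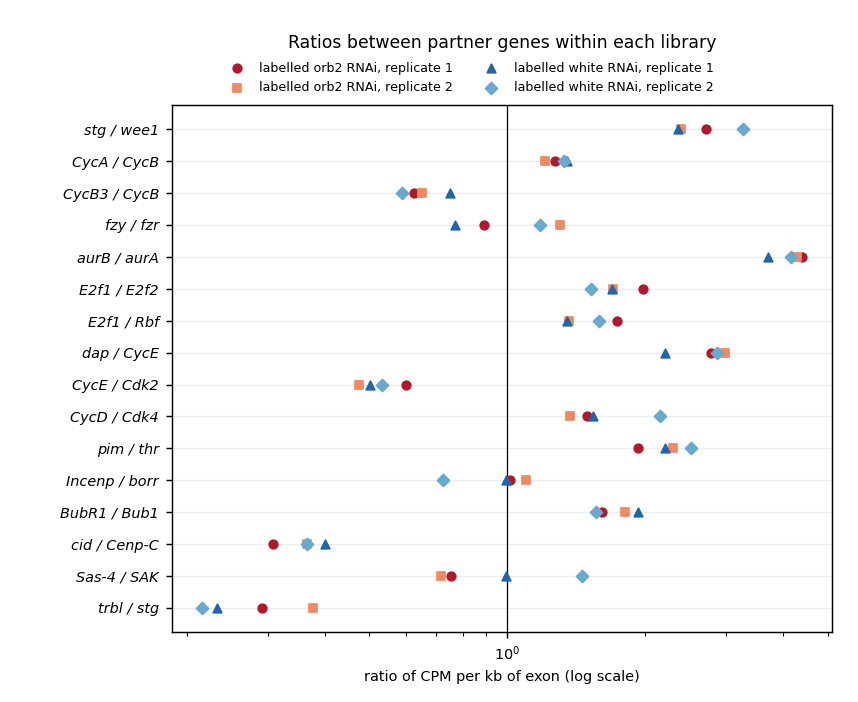
Ratio of levels per kb of exon (log axis) between 16 pairs of partner genes in each library. The symbols of the labels separate for 7 of the 16 pairs, among them Sas-4 over SAK (left) and trbl over stg (right). No share was computed over other gene pairs. The pair fzy over fzr splits by replicate number instead.

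The 41 genes varied little between libraries. The range from the lowest to the highest of the 4 libraries had a median of 0.39 on the log2 scale and was under 0.5 for 31 genes, or 75.6%. It was under 0.5 for 53.3% of the other cell cycle genes and 37.1% of the DNA replication genes described below. The shares were 26.3% of all tested features and 42.7% of protein-coding genes with a mean of at least 20 CPM. No gene differed by over 2-fold between any pair of libraries, whereas between the replicates labelled *white* RNAi 13.9% of those protein-coding genes did. The spread of log2 ratios between these replicates, a scaled median absolute deviation, was 0.35 for the 41 genes and 0.67 for the same protein-coding genes. Between the replicates labelled *orb2* RNAi it was 0.17 and 0.21. With the exon length trend taken out, it was 0.18 and 0.39 for the *white* RNAi pair and 0.17 and 0.20 for the *orb2* RNAi pair. For *orb2* RNAi replicate 2 over *white* RNAi replicate 2 it was then 0.30 and 0.32, nearly alike. The narrowest ranges belonged to *E2f2*, *Dp*, *BubR1*, *asl* and *Cenp-C*, all under 0.2, and the widest to *aurB*, *trbl*, *aurA*, *Sas-4* and *Cdk1*.

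**Figure D4:**
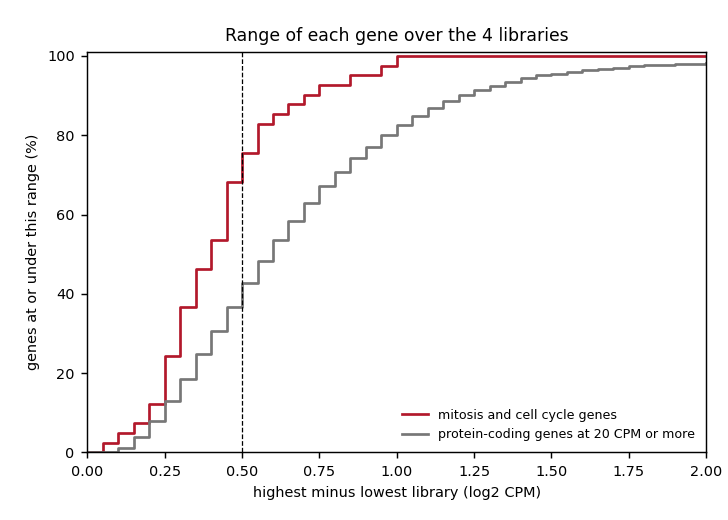
Cumulative share of genes (%) whose range over the 4 libraries, highest minus lowest in log2 CPM, is at or under the value on the x axis, for the 41 mitosis and cell cycle genes and for protein-coding genes with a mean of at least 20 CPM; the dashed line marks 0.5. The cell cycle curve lies to the left, with 75.6% of genes under 0.5 against 42.7%.

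The difference between replicates moved with exon length. Over the 41 genes, Spearman's rho between exon length and the log2 ratio of *white* RNAi replicate 2 over replicate 1 was -0.53, the same as over 10421 protein-coding genes, and genes within a library share its depth and RNA. Between the replicates labelled *orb2* RNAi it was -0.50 over the 41 genes and -0.22 over protein-coding genes. The 8 genes with under 1600 bases of exon, *Cdk1*, *aurA*, *aurB*, *borr*, *Bub3*, *Sas-6*, *cid* and *pim*, summed to 471 and 534 CPM in libraries labelled *orb2* RNAi, against 395 and 619 CPM in those labelled *white* RNAi. The 8 genes with over 4000 bases, *E2f1*, *cnn* and *scra* among them, summed to 1255 and 1188 CPM under the label *orb2* RNAi and 1165 and 1056 CPM under *white* RNAi. Among short genes 7 of 8 were higher in *white* RNAi replicate 2 than in replicate 1, with *cid* as the exception, and among long genes 2 of 8 were. With the length trend taken out, 23 of 41 log2 fold changes lay above 0 against 47.6% of all features, the median was 0.02, and *trbl* had an unadjusted edgeR p of 0.0349 at a log2 fold change of 0.58.

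**Figure D5:**
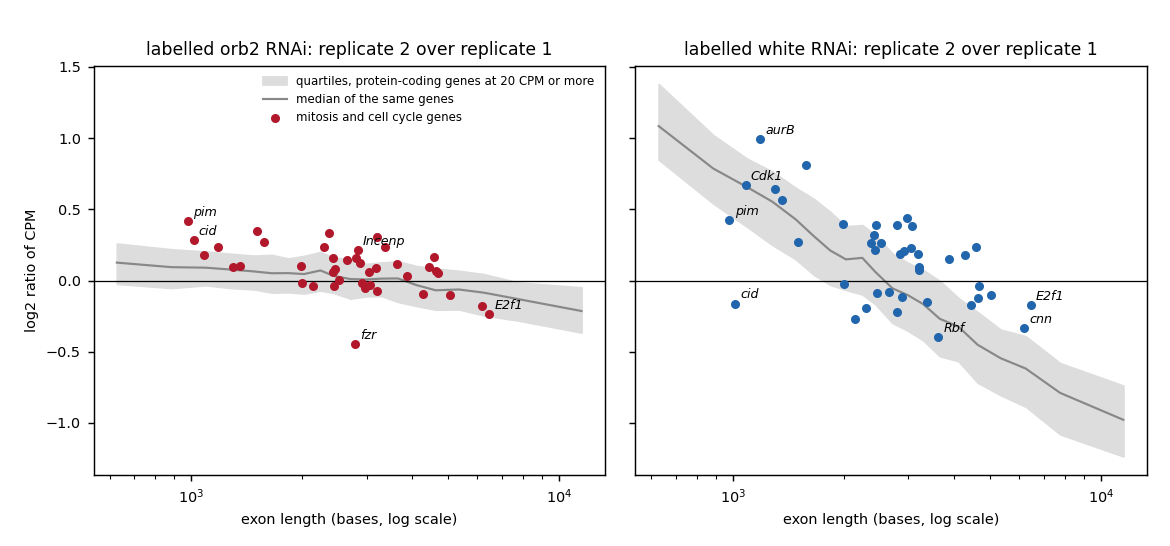
Log2 ratio of replicate 2 over replicate 1 against exon length (bases, log axis) for each gene, in the libraries labelled orb2 RNAi (left) and white RNAi (right); grey shows the median and quartiles of protein-coding genes with a mean of at least 20 CPM. In the white RNAi pair short genes such as aurB and Cdk1 lie above 0 and long genes such as cnn and E2f1 below it. The grey genes have the same direction, but cnn at -0.33 and E2f1 at -0.17 lie above their upper quartile. That quartile is -0.39 at a median exon length of 6254 bases.

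A wider list of other cell cycle genes gave no call either. Of 106 matched genes all but *lmgA* were tested, 0 were called by edgeR and 0 had an unadjusted p under 0.05, with a median log2 fold change of 0.08. Above both libraries labelled *white* RNAi lay 27 genes, 25.7%, and below both 8, 7.62%, beside 18.5% and 11.7% of all tested features. The highest fold changes were those of *ana1*, *lok*, *ana3* and *Grip71*, at 0.60, 0.54, 0.46 and 0.42, and the lowest those of *APC7*, *CycJ*, *dgt4* and *Cks85A*, at -1.57, -0.98, -0.85 and -0.60. Most of these rested on a single library labelled *white* RNAi. Without replicate 1 the estimate was 1.21 for *ana1*, 0.97 for *ana3* and 0.17 for *Grip71*, and without replicate 2 it was 0.18, 0.10 and 0.74. *APC7* had only 4 and 26 reads under the label *orb2* RNAi and 84 and 5 under *white* RNAi, and its estimate turned to 0.72 without *white* RNAi replicate 1. Without replicate 2 the estimate was -0.12 for *CycJ*, -0.37 for *dgt4* and -0.04 for *Cks85A*. For *lok* it was 0.50 without replicate 1 and 0.59 without replicate 2. *lok*, the Chk2 kinase of the damage checkpoint, had 42.0 and 45.7 CPM in libraries labelled *orb2* RNAi, against 29.1 and 31.3 CPM in those labelled *white* RNAi. *dgt4*, a subunit of the augmin complex that seeds spindle microtubules, had 8.21 and 8.50 CPM under the label *orb2* RNAi and 10.8 and 19.4 CPM under *white* RNAi. *lok* was even within each label, while the *dgt4* libraries differed mainly by the high level of *white* RNAi replicate 2. Of 35 tested DNA replication genes, 5 lay above both libraries labelled *white* RNAi, 14.3%, and 0 below, beside 18.5% and 11.7% of all tested features. Their median log2 fold change was -0.01, with summed levels of 2218 and 2573 CPM under the label *orb2* RNAi against 1918 and 2899 CPM under *white* RNAi. The sums for replication genes thus spread most between the replicates labelled *white* RNAi.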

How the data were processed

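Each deposited table holds unnormalized read counts by feature. The authors trimmed reads with Trim Galore, aligned them with HISAT2 to BDGP6.32 and counted them with featureCounts; the versions of Trim Galore and HISAT2 are not given in the sources used here. A stranded kit is named in the study's methods and another TruSeq kit in the labels, so counting by strand is taken as unknown. Tests were run in R 4.3.3 using edgeR 4.0.16 (filterByExpr, TMM, quasi-likelihood test without a replicate block), limma 3.58.1 and DESeq2 1.42.0, and p-values were adjusted by Benjamini-Hochberg over all tested features. Library totals ran from 34.61 to 75.41 M counts, and the 41 genes took 0.429% to 0.493% of them. Counts are of reads, not independent molecules, and replicate spread sets the precision.

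Exon lengths and positions came from BDGP6.54 (Ensembl 115), and 99.7% of tested features had a length. The 41 genes, the other lists and the tests were chosen with earlier results of these data known. Values in each library were given for the 6 largest and 6 smallest fold changes and for 12 chosen regulators. Library values of *SAK*, *aurB* and *aurA* were shown outside this rule, after their values were seen. Of the other cell cycle genes, the 4 highest and 4 lowest were named. Older symbols were matched through FlyBase names, and 106 of 108 other cell cycle genes and 36 of 38 replication genes matched.

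Spreads used log2 of CPM plus 0.5. The length trend was a lowess fit with a span of 0.3. Other fits used DESeq2 (with or without a prior on fold changes), other scalings, filters and thresholds, a replicate block, the length trend, or 3 of the 4 libraries. The test was checked on simulated counts with large added changes and no exon length trend. That check does not show how the test performs on these libraries.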

Additional observations from a re-analysis of the deposited data

How the results depend on the processing

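With 2 libraries a label, the 95% intervals of the 41 genes reached a median of 0.55 on the log2 scale to either side. Changes beyond that also went uncalled, such as *trbl* at 0.63 and *orb2* itself at 2.29. The count of 0 genes called among the 41 held in every alternative run, including each library left out, where the lone library of a label was assumed to vary like the others. The median log2 fold change of the 41 genes was 0.09, and 0.083 to 0.183 with 1 library left out, highest without *white* RNAi replicate 2. That of the other cell cycle genes was 0.08, and 0.13 with library totals, 0.018 with the exon length trend taken out, and 0.065 to 0.112 with 1 library left out. DESeq2 with its prior and without *white* RNAi replicate 1, chosen after seeing the data, called 18 other cell cycle genes, 8 higher and 10 lower, and 0 of the 41. It called 6.82% of all features higher and 4.94% lower, and the cause was not tested. Signs changed for 18 of the 41 genes with the length trend taken out, for 11 without *white* RNAi replicate 1 and for 10 without replicate 2, and 13 kept theirs in every fit run: *CycB*, *CycB3*, *Cdk4*, *dap*, *Incenp*, *Mps1*, *SAK*, *pav*, *feo*, *wee1* and *trbl* above 0, and *Mad1* and *Sas-4* below.

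The replicate numbers are not said to mark anything shared, and over features the deviations of replicate 1 from replicate 2 correlated between the labels at a Pearson r of 0.228 and a Spearman rho of 0.216. With the replicate block, 0 of the 41 genes were called, their median log2 fold change was 0.10, and over all features 62 were called higher and 11 lower, against 0 without it. With the replicate block and the length trend taken out together, the medians were 0.026 for the 41 genes and 0.027 for the other cell cycle genes.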
